A study of Mus musculus with 4 samples.

Results

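Steroidogenic and adrenal-type genes were examined in whole kidneys of mice with experimental membranous nephropathy (MN), a disease in which antibody and antigen collect on the outer face of the glomerular filter. The set held 9 genes, taken from the array probes by gene name: Akr1b7, Hsd3b1, Cyp11a1, Cyp11b1, Cyp11b2, Cyp17a1, Star, Nr5a1 and Mc2r. All 9 had a probe on every array, 10 probes in all among 55681, with a pair of probes for Star and 1 probe for each of the other 8. The MN group consisted of 2 kidney samples from female BALB/C mice that were immunized with 0.2 mg of cationic bovine serum albumin in complete Freund's adjuvant and, from 2 weeks later, received 3 intravenous injections a week of the same protein over 6 weeks, each of 13 mg/kg. The control group consisted of 2 kidney samples from mice of the same sex and strain that received the same immunization and then vehicle on the same schedule, which the labels call saline in one place and PBS in another. The labels give an age of 6 weeks, read here as that at the start, and no age at sampling. Both groups therefore carried the immunization and the adjuvant, and they differed in the repeated intravenous antigen. The labels name the tissue only as kidney and do not say whether each sample came from a separate animal, so the spread behind the p-values is that between these samples and may be technical.

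Steroid hormones are made from cholesterol in a fixed order. The protein STAR carries cholesterol into the mitochondrion, the enzyme CYP11A1 cuts off its side chain, HSD3B enzymes convert the product to progesterone-type steroids, and CYP17A1, CYP21A1 and the CYP11B enzymes complete glucocorticoids, mineralocorticoids or androgen precursors. In the adrenal cortex the pathway is driven by the pituitary hormone ACTH through its receptor MC2R and by the nuclear receptor NR5A1, also called steroidogenic factor 1 (SF-1). The adrenal cortex of the adult mouse lacks CYP17A1 and makes corticosterone, while the kidney responds to steroids and expresses several enzymes that convert them.

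Each sample was measured on its own 1-colour Agilent array. Both arrays of slide 1 were replicate 1 (1 MN and 1 control), and both arrays of slide 2 were replicate 2. The software's mark for spots well above background was set for 64.0% and 63.1% of non-control spots on the MN arrays, and for 65.9% and 79.5% on the control arrays. No non-control spot was saturated. All 10 kidney markers (among them Umod, Lrp2, Slc34a1, Nphs1 and Aqp2) were well above background on all 4 arrays. Signals below are given as a percentage of the 75th percentile of the same array, or as log2 of that ratio, and the signals of different probes are not compared as amounts of transcript. Precision is limited throughout by having 4 arrays.

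Probes of 4 genes, from cholesterol transport to aldosterone synthesis, are shown because a probe reports only the transcripts that hold its sequence. These 4 probes had no stop codon in at least 2 forward frames. All of them are 60 bases long, are written 5′ to 3′, have no part marked in capitals, and have positions on mm9. The Cyp17a1 probe (chr19:46742594-46743207, minus strand), the Cyp11a1 probe (chr9:57874074-57874544, plus strand) and the Cyp11b2 probe (chr15:74681530-74681855, minus strand) spread over 614, 471 and 326 genomic bases and so cross an intron. The Star probe shown (chr8:26920280-26920339, plus strand) lies in 1 block and is the second probe of that gene, not the one tested.
Cyp17a1: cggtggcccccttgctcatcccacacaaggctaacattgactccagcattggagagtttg
Cyp11a1: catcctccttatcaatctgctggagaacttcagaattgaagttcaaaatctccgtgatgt
Cyp11b2: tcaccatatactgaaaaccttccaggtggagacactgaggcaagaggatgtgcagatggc
Star: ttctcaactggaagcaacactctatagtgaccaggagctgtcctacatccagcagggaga

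The comparison asked whether transcripts of these genes differed between MN and control kidneys. Of the 5 members detected on all 4 arrays, Akr1b7 was the only 1 for which both MN arrays lay below both control arrays. Such a separation was shown by 19.9% of all genes tested. Hsd3b1 was detected on both control arrays and on neither MN array. Cyp17a1, Star, Nr5a1 and Cyp11b1 were detected on all 4 arrays with overlapping groups, and Cyp11a1, Mc2r and Cyp11b2 were detected on 1 array or on none. With limma (two-sided, Benjamini-Hochberg adjustment over 25293 genes), 0 of the 6 members tested passed the adjusted threshold of 0.05, against 0.0198% of all genes tested (5 genes, all higher in MN). At an unadjusted p under 0.05, 2 of the 6 members were lower in MN and 0 were higher, against 3.49% of all genes that were lower. One of these, Hsd3b1, entered the test only through the control arrays, where it was brighter, so the count supports nothing about the set. In whole-kidney RNA, fewer cells of a type and less RNA per cell cannot be told apart.

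**Figure D1:**
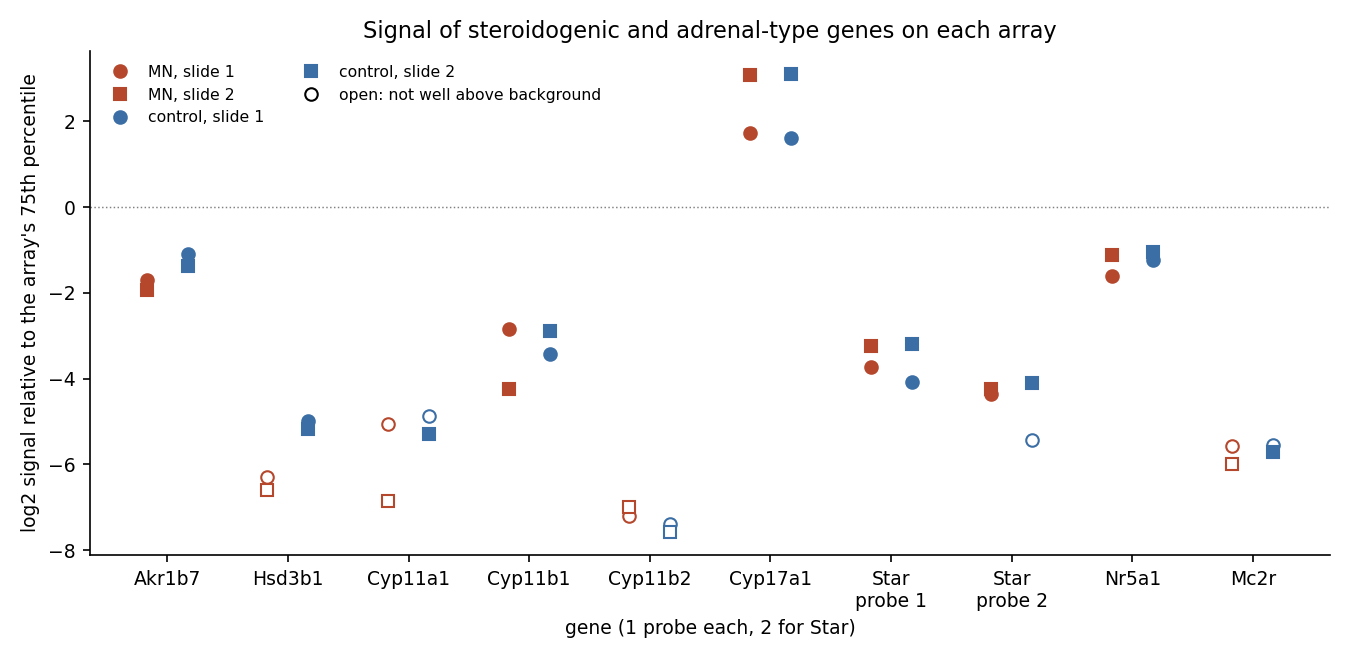
Log2 signal of each probe relative to its array's 75th percentile (vertical axis) for the 9 genes (horizontal axis), with MN left of control, circles for slide 1, squares for slide 2 and open symbols for spots not well above background. The MN symbols of Akr1b7 lie below its control symbols, the symbols of Cyp17a1 separate by slide in both groups, and those of Hsd3b1 are open on both MN arrays.

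Akr1b7 encodes an aldo-keto reductase that, in the mouse adrenal cortex, is induced by ACTH and removes the aldehyde released when the cholesterol side chain is cut. It has also been described in renin-producing cells of the mouse kidney. Its probe lies at chr6:34372905-34372964 on the plus strand (mm9). Akr1b7 had signals of 31.0% and 26.1% of the 75th percentile on the MN arrays, against 46.7% and 38.7% on the control arrays. Both MN values were below both control values, a separation in the lower direction that 19.9% of all genes tested also showed. The mean was 28.5% ± 3.42 in MN and 42.7% ± 5.68 in control (SD, n = 2 each). The log2 difference (MN minus control) was -0.58 ± 0.18 (SE; 95% interval -1.09 to -0.07), and it did not pass limma's test (adjusted p = 0.63, unadjusted p = 0.0347). The difference was -0.59 within slide 1 and -0.57 within slide 2, and the adjusted p was 0.195 with the slide as a block. With normexp background correction the log2 difference was -0.44.

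The list of renin cell markers was read beside Akr1b7. All 5 of these genes were detected on all 4 arrays and none passed the test. Ren1, which encodes the protease renin, had log2 levels of -0.38 and -0.44 in MN, against -0.31 and -0.39 in control, so its groups overlapped and its difference was -0.06 ± 0.14 (SE). The probe named for Ren2 differed by -0.04, and which renin transcript it reported was not tested. Acta2 and Rgs5, which also mark smooth muscle and pericytes, differed by 0.56 and 0.30. The summed signal of the 5 genes ran from 1128% to 1239% of the 75th percentile in MN and from 1047% to 1196% in control. Most of it came from the Ren2 probe, so it says little about the dimmer genes of the list. The part of these 5 genes in the Akr1b7 difference was not tested.

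Hsd3b1 encodes the 3-beta-hydroxysteroid dehydrogenase of the mouse adrenal cortex and gonads, which makes progesterone from pregnenolone. Its probe lies at chr3:98656127-98656186 on the minus strand (mm9). Hsd3b1 had signals of 1.28% and 1.04% of the 75th percentile on the MN arrays, neither of them well above background, against 3.17% and 2.75% on the control arrays, both well above background. The lowest signal called well above background was 3.12% and 3.23% on MN arrays 1 and 2, so the control level of Hsd3b1 lay close to what the MN arrays could detect. For that reason no fold is given: the bound computed from these limits was under 1. Mean log2 levels were -6.44 in MN and -5.08 in control, with an adjusted p of 0.318 by limma. Before background subtraction the spot means were 91.0 and 70.8 units in MN and 99.5 and 71.9 units in control, with local backgrounds of 43 and 36 units in MN and 43 and 42 units in control. The spots themselves thus differed far less between the groups than the background-subtracted signals. The spot mean divided by the local background was 2.12 in MN and 2.31 in control on slide 1. On slide 2 it was 1.97 in MN and 1.71 in control, the opposite order. With normexp correction the difference was -0.43 on the log2 scale.

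**Figure D2:**
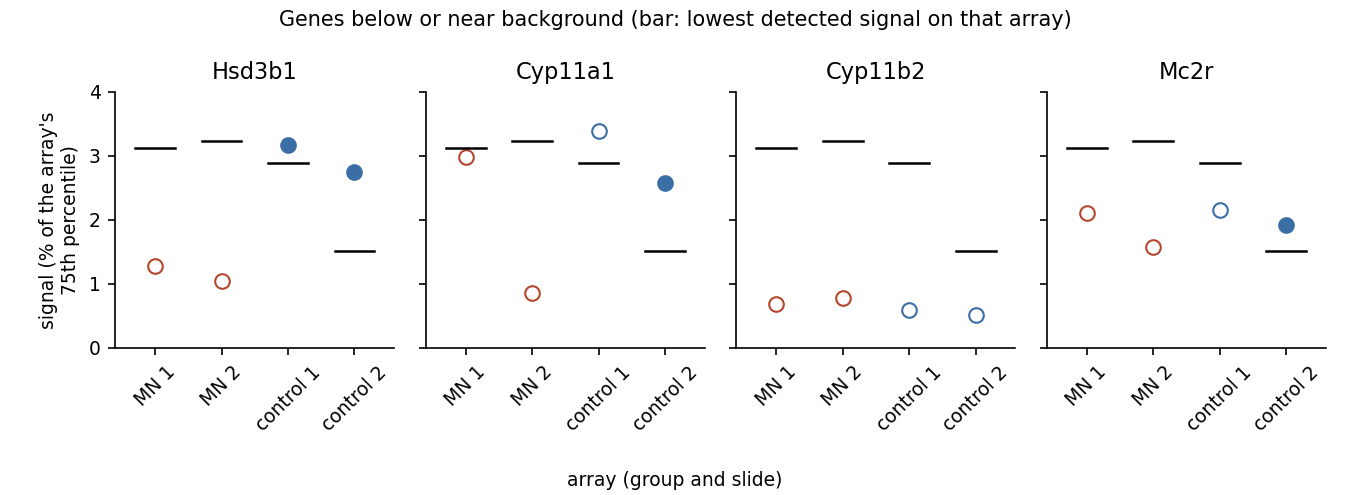
Signal of the 4 genes that were detected on at most 2 arrays, as a percentage of the array's 75th percentile (vertical axis), on each array (horizontal axis, MN left of control), with open symbols for spots not well above background and a black bar at the lowest signal called well above background on that array. The bar lies at 1.51% on control array 2 and between 2.89% and 3.23% on the other arrays.

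The promoters of Akr1b7 and Hsd3b1 are shown because these were the members for which both MN arrays lay below both control arrays. That separation was also found for 19.9% of all genes tested. The 250 bases before the RefSeq start site are given 5′ to 3′ on the gene's strand (GRCm38.p6), and capitals mark the motif AAGGTCA, which SF-1 is known to bind, on either strand. The windows are chr6:34412112-34412361 (plus strand) for Akr1b7 and chr3:98859795-98860044 (minus strand) for Hsd3b1.
Akr1b7: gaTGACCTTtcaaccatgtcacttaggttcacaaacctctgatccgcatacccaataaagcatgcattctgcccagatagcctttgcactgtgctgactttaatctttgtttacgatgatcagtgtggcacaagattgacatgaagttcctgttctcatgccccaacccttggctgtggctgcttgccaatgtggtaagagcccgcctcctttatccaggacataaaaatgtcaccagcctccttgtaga
Hsd3b1: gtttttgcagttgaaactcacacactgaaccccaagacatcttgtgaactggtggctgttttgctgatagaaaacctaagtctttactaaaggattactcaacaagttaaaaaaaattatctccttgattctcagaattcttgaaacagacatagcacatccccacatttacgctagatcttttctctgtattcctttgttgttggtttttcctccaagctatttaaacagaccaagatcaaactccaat
The Akr1b7 window held AAGGTCA 1 time, on the opposite strand and starting at position -248, and the Hsd3b1 window held it 0 times. Of 32851 promoter windows of the same length in the RefSeq table, 4.08% held it. Neither window held TATAAA (12.4% of windows) or the cAMP response motif TGACGTCA (1.55% of windows), both read on either strand. These matches describe letters only. Promoters of 3 of the 9 genes were in the table, Cyp11a1 being the third.

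Among the enzymes that act on pregnenolone and progesterone, Cyp17a1 was well above background on every array. CYP17A1 adds the 17-hydroxyl group needed for cortisol and for androgen precursors. Cyp17a1 had signals of 334% and 846% of the 75th percentile on MN arrays 1 and 2, against 307% and 865% on control arrays 1 and 2. The groups overlapped, and the high and low arrays divided by slide: both slide 2 arrays were far above both slide 1 arrays. The log2 difference between MN and control was 0.04 ± 0.72 (SE; 95% interval -1.96 to 2.05; limma adjusted p = 1.0). Within slide 1 it was 0.12 and within slide 2 it was -0.03. The spread behind this interval holds the slide difference, and a fit blocked on slide gave 0.04 with an SE of 0.104 (adjusted p = 0.877 by limma). With control array 1 left out the difference was -0.70, and with MN array 2 left out it was -0.63, so the sign of the pooled value rests on having both slides in both groups.

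The slide 2 minus slide 1 difference of Cyp17a1 was 1.34 in MN and 1.49 in control on the log2 scale. Over all 25293 genes, the mean of these differences had a median of 0.02, it was 1 or more for 4.36% of genes, and 1.66% of genes had a larger one than Cyp17a1. Star (0.49 in MN and 0.89 in control) and Nr5a1 (0.49 in MN and 0.19 in control) were also brighter on slide 2 in both groups, whereas Akr1b7 (-0.24 in MN and -0.27 in control) and Hsd3b1 (-0.30 in MN and -0.21 in control) were dimmer there. Cyp11b1 differed in opposite directions, by -1.40 in MN and 0.53 in control. Of the 75 other pathway genes tested, 2 had a mean slide difference of 1 or more, and both are named here after their values were seen. Sts, steroid sulfatase, which frees steroids from their sulfates, differed by 1.33 in MN and 1.32 in control, and Hsd3b6 differed by 0.85 in MN and 1.61 in control. Kap, an androgen-regulated kidney protein used here as a kidney marker, differed by 0.66 in MN and 1.73 in control. The slide coincides with the replicate number and the scan, and no label says how the samples of the slides differed.

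**Figure D3:**
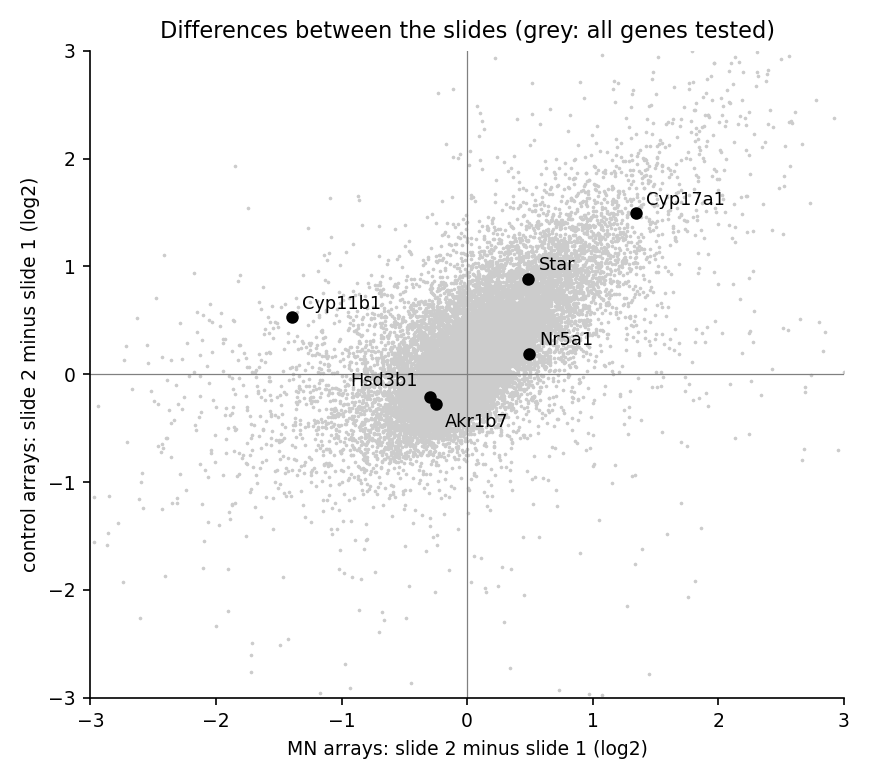
Slide 2 minus slide 1 difference in log2 signal on the MN arrays (horizontal axis) and on the control arrays (vertical axis), with 1 grey point per gene tested and the 6 tested members in black, drawn from -3 to 3. Cyp17a1 lies at the upper right (1.34 in MN and 1.49 in control), Akr1b7 and Hsd3b1 lie just below 0 on both axes, and Cyp11b1 lies at the left.

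Star encodes the protein that delivers cholesterol to the inner mitochondrial membrane. The tested probe had signals of 7.53% and 10.5% of the 75th percentile in MN, against 5.89% and 10.9% in control. The second probe, whose sequence is printed above, had signals of 4.90% and 5.25% in MN, against 2.30% and 5.85% in control, and the 2.30% was not well above background. The groups overlapped at both probes. The tested probe gave a log2 difference of 0.15 ± 0.38 (SE; 95% interval -0.91 to 1.21; adjusted p = 1.0 by limma), and the second probe gave 0.47 ± 0.49. With normexp correction the difference at the tested probe was -0.031, and with control array 1 left out it was -0.29, so no direction is given for Star.

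Nr5a1 encodes SF-1, the nuclear receptor that directs steroidogenic gene expression in the adrenal cortex and gonads. Its signals were 32.8% and 46.1% of the 75th percentile in MN, against 42.4% and 48.5% in control, all well above background, from a probe at chr2:38548180-38548239 on the minus strand (mm9). The lower MN array was the lowest of the 4, and the groups overlapped. The log2 difference was -0.22 ± 0.23 (SE; 95% interval -0.86 to 0.41; limma adjusted p = 1.0), and with MN array 1 left out it was 0.024.

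Cyp11b1 encodes the 11-beta-hydroxylase that completes corticosterone. Its signals were 13.9% and 5.30% of the 75th percentile on MN arrays 1 and 2, against 9.27% and 13.4% on control arrays 1 and 2, all well above background. The MN arrays were both the highest and the lowest of the 4. The pooled log2 difference was -0.37 ± 0.54 (SE; 95% interval -1.89 to 1.14; limma adjusted p = 1.0), but it was 0.59 within slide 1 and -1.34 within slide 2, and without MN array 2 it was 0.32. Cyp11b2 encodes aldosterone synthase, which is restricted to the outer zone of the adrenal cortex. Its signals of 0.683% and 0.781% in MN and 0.596% and 0.521% in control were not well above background on any array, and 3 of the 4 were surrogate values set by the scanner software, so no difference is given. CYP11B enzymes are close relatives, and probes of such genes can bind each other's transcripts.

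Cyp11a1, the side-chain cleavage enzyme that commits cholesterol to steroid synthesis, had signals of 2.99% and 0.864% of the 75th percentile in MN, against 3.40% and 2.57% in control. The 0.864% on MN array 2 was a surrogate value set by the scanner software. Before background subtraction the Cyp11a1 spot means were 101.6 and 75.3 units in MN and 99.1 and 66.0 units in control. Mc2r, the ACTH receptor, had signals of 2.11% and 1.58% in MN, against 2.15% and 1.92% in control. For both genes the 1 spot well above background was that of control array 2, although its signal was lower than that of control array 1. Control array 2 also had the largest share of spots called well above background (79.5%, against 63.1% to 65.9% on the other arrays) and the lowest detection limit (1.51% of the 75th percentile, against 2.89% to 3.23%). Neither gene was tested, and the bounds computed for them were under 1, so no fold is given.

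**Figure D4:**
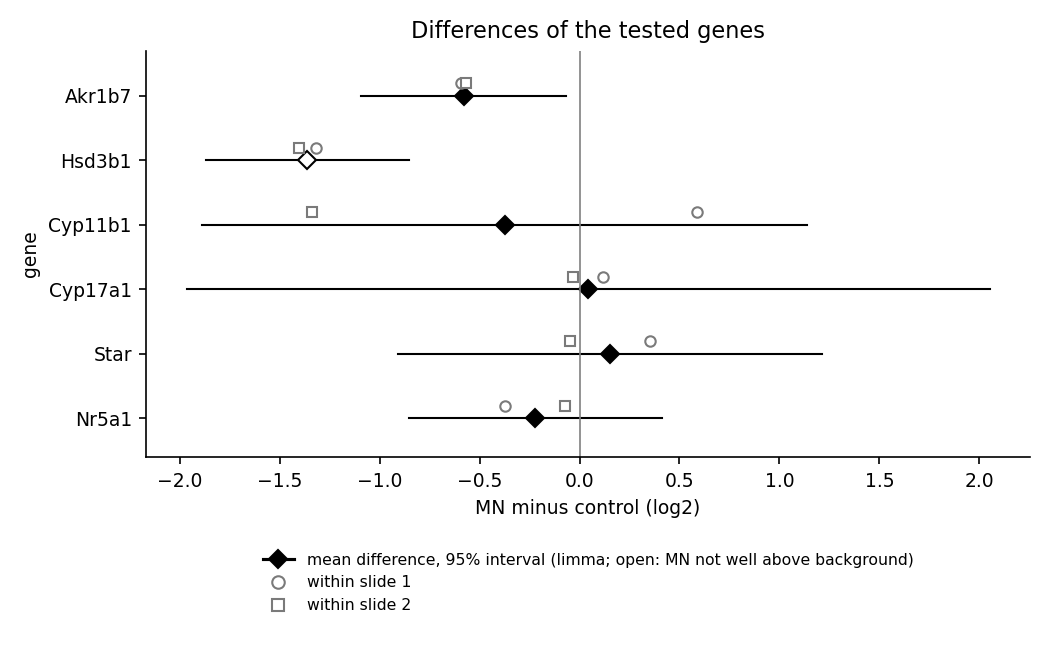
MN minus control difference in log2 signal (horizontal axis) for the 6 tested genes (vertical axis): diamonds show limma's estimate with its 95% interval, and open circles and squares show the difference within slide 1 and slide 2. The slide values of Akr1b7 nearly coincide (-0.59 and -0.57), those of Cyp11b1 lie on opposite sides of 0 (0.59 and -1.34), and Hsd3b1 is drawn open because both of its MN spots were not well above background.

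The median difference over the 6 tested members was -0.30, against -0.05 over all genes tested. It was -0.22 over the 5 members detected on all 4 arrays, which leave out Hsd3b1, against -0.04 over the 23272 genes detected on all 4. These medians describe few genes, and nothing about the set is drawn from them. The label adrenal-type was set against the detection of the genes that define the adrenal cortex. Mc2r and Cyp11a1 were detected on 1 array and Cyp11b2 on none, and Nr0b1, which encodes a partner of SF-1 in the adrenal cortex, was detected on none. Cyp21a1, the 21-hydroxylase of the adrenal cortex, was detected on all 4 arrays, with log2 levels of -1.29 and -1.48 in MN, against -1.12 and -0.91 in control. Its difference was -0.36 ± 0.17 (SE; adjusted p = 0.825 by limma). Of the genes known from the adrenal cortex, some were thus detected on every array and others on 1 array or on none.

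Genes that share each member's profile over the 4 arrays were found among 15108 named genes detected on all 4, by the Euclidean distance between log2 values centred on each gene's mean. The nearest to Akr1b7 were Txnip, Zfp2 and Chst3 (distances of 0.04, 0.04 and 0.05), and the nearest to Cyp17a1 were Lrrc31, Endov and Klk1b8 (0.05, 0.06 and 0.10). For Star they were Zfhx3, Aadacl4fm5 and Rabif, for Nr5a1 Epop, Cdc25a and Ppp1r35, and for Cyp11b1 Slc17a8, Cacna1h and Olfr477, the last at distances of 0.23 to 0.32. With 4 arrays such closeness is a description only.

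Other genes of the pathway were read from 5 lists, of which 75 genes were tested. None passed limma's adjusted threshold in either direction (smallest adjusted p = 0.293). At an unadjusted p under 0.05, 7 were higher and 3 were lower in MN, which is 13.3% of the 75, against 7.03% of all genes tested. The HSD3B relatives are members of the same gene family as Hsd3b1 and include the forms known from kidney and liver. Of these 6 genes 5 were tested, with 3 positive and 2 negative values and a median of 0.28. Hsd3b3 had log2 levels of 4.14 and 4.46 in MN, against 3.35 and 3.61 in control. Both MN values were above both control values, as for 13.2% of all genes tested. The difference of Hsd3b3 was 0.82 ± 0.20 (SE; adjusted p = 0.511 by limma). Hsd3b6 was at 0.54, Hsd3b4 at -0.09 and Hsd3b2 at 0.28, for which its probes ranged from 0.05 to 0.87. HSD3B genes are near-identical in parts, so which relative gave a probe's signal is uncertain.

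The aldo-keto reductase relatives of Akr1b7 had 12 of 13 members tested, a median of 0.01 and 0 passing. Akr1b8, a close relative of Akr1b7, had log2 levels of 2.00 and 1.97 in MN, against 1.44 and 1.77 in control, and a difference of 0.38 ± 0.17 (SE). Its value had the opposite sign to that of Akr1b7. Akr1c21 was at 0.48, Akr1c12 at -0.40 and Akr1c13 at -0.35.

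The list of other steroid-making and steroid-converting enzymes had 23 of 24 tested, of which 17 were negative and 6 positive (median -0.08), with 0 passing. Hsd17b2, which inactivates estradiol and testosterone, was at -0.48 ± 0.15 (SE; limma adjusted p = 0.637), Hsd17b7 at -0.39 and Hsd17b1 at -0.35. The 3 probes of Hsd17b7 ranged from -0.39 to -0.09. Hsd11b2, which protects the mineralocorticoid receptor from glucocorticoids in the distal nephron, was at -0.03. The electron donors of the pathway Fdx1 and Por were at -0.16 and -0.11, and Fdxr was at 0.03.

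In the list of cholesterol supply genes, all 14 of which were tested, 0 passed and the median was -0.06. Abca1, which exports cholesterol from cells, had log2 levels of 1.89 and 1.80 in MN, against 0.99 and 0.70 in control (difference 0.998 ± 0.169, SE; adjusted p = 0.37). Both MN arrays lay above both control arrays, as they did for 13.2% of all genes tested (the groups did not overlap in one direction or the other for 33.1%). Stard4, a soluble cholesterol carrier, was at -0.34, and Lipe, which frees stored cholesterol, was at -0.26.

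The list of adrenal signalling and transcription factors had 21 of 25 tested, a median of 0.02 and 0 passing. Mrap encodes the accessory protein that brings MC2R to the cell surface and is also known from adipocytes. Its log2 levels were -1.96 and -2.04 in MN, against -3.17 and -3.05 in control, a difference of 1.11 ± 0.14 (SE; adjusted p = 0.293; 0.77 with normexp). Dlk1 was at 0.75 (0.20 with normexp), Inha at 0.52 and Nr4a1, an immediate early nuclear receptor, at -0.66. The receptor Mc2r itself was at or near background, as given above.

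Markers of other cell types were read beside these values. Of 10 adipocyte markers 9 were tested, and Cfd and Adipoq passed as higher in MN (adjusted p = 0.046 each by limma), but neither passed in a fit blocked on slide (adjusted p = 0.0579 each). Cfd, Adipoq and Retn entered the test only through the MN arrays, where they were brighter. The calls of Cfd and Adipoq therefore support nothing about the list. Retn, Cidec and Plin1 did not pass, with both MN arrays above both control arrays at the tested probe, as for 13.2% of all genes tested. The 2 probes of Cidec gave differences of 0.27 and 2.59, the larger at the tested one. Plin1 was at 0.40 (0.11 with normexp) and Plin4 at 0.11, and Lep, Pparg and Fabp4 were at -0.09, 0.02 and -0.10. Of the 9 tested values 7 were positive and 2 negative, with a median of 0.40, a count that includes Cfd, Adipoq and Retn. Adipoq and Retn were detected on both MN arrays and on no control array, Ucp1 was detected on none of the 4, and the summed signal of the list ran from 2401% to 2432% of the 75th percentile in MN and from 1938% to 2174% in control. Their part in the Mrap difference was not tested. Of 12 adrenal medulla markers 7 were tested, 0 passed and Scg2 was detected on no array. The summed signal of that list was 2178% to 2182% in MN and 2210% to 2256% in control. Most of it came from the probes of Cyb561, Slc18a1 and Npy, so it says little about the dimmer genes of the list. Chga was at -0.41 and Th at -0.12. Of 9 ovary markers 3 were tested and 0 passed. Fshr, Lhcgr and Zp2 were detected on no array. The sum was 4281% to 4844% in MN and 4975% to 6428% in control, nearly all of it from the probe of Foxl2. Foxl2 was detected on all 4 arrays, with log2 levels of 5.41 and 5.59 in MN, against 5.63 and 6.00 in control. Its difference was -0.31, so the sum restates that 1 gene. The other ovary markers tested were Zp3 at -0.75 (detected on 2 arrays, groups overlapping) and Gdf9 at 0.08. Neither list's part in the members' values was tested.

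**Figure D5:**
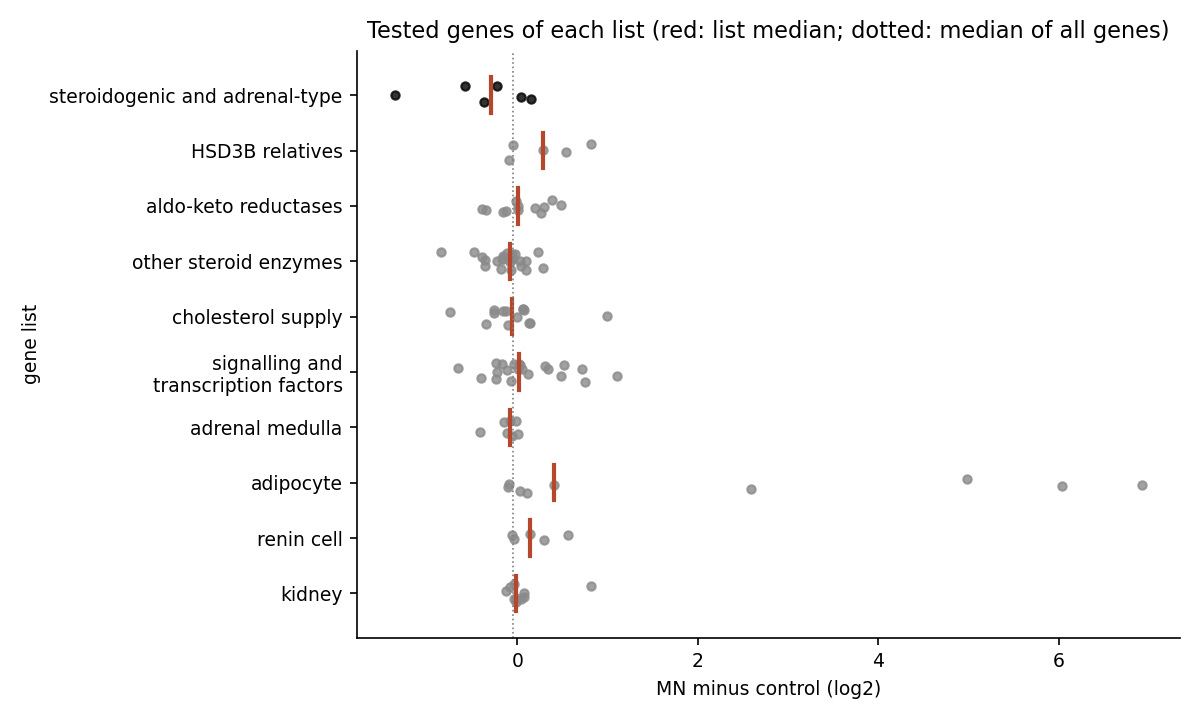
MN minus control difference in log2 signal (horizontal axis) of the tested genes in each list (vertical axis), with the ovary list not drawn. Each gene is 1 point, a red bar marks the list's median and a dotted line marks the median of all genes tested (-0.05). Most genes lie within 1 of 0, and the farthest points belong to the adipocyte list. Mrap and Hsd3b1, the latter not well above background on the MN arrays, also lie more than 1 from 0.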

How the data were processed

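Spot intensity values, linear in scale, were read from the scanner output the authors deposited. Per the file headers, these were made with Feature Extraction 10.5.1.1, with background subtraction, detrending within the array and surrogate values for spots near background, and the probes were placed on mm9. Non-control spots were kept, those flagged as non-uniform were dropped, and repeated spots of a probe were averaged as log2 signal minus log2 of the array's 75th percentile. Gene names were updated through accessions in the RefSeq table (GRCm38.p6), which left the 10 member probes unchanged. The test took probes that were well above background on both MN arrays, on both control arrays or on all 4, with the brightest probe standing for its gene. It used limma 3.58.1 under R 4.3.3 (residual df 2, prior df 1.99) without a block. The deposited log2 value table, whose scale and making are not given in the sources used here, matched these log2 values minus the control mean (column medians 0.03 and -0.03 in control, and -0.03 and -0.04 in MN), with replicates 1 and 2 exchanged in both groups (r above 0.99 with the other replicate's array). It served only as an alternative, since group means do not depend on that order. Promoters were taken from RefSeq. Figures used Python 3.11.15 and matplotlib 3.10.9. The limma script was tested on simulated data. The members and lists were chosen with earlier results of these data known. Text names every member, from each pathway list the genes past the threshold or otherwise up to 4 with the largest absolute difference among those detected on all 4 arrays, and the 3 nearest profiles of each such member. One gene that this rule names is not reported here. Further genes of the lists (Hsd11b2, Fdx1, Por, Fdxr, Chga, Th and the genes named from the marker lists) were named after their values were seen.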

Additional observations from a re-analysis of the deposited data

How the results depend on the processing

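Of the 6 tested members 0 passed the threshold under any of the alternatives run, and Akr1b7 kept its sign in all of them (-0.72 to -0.44). Hsd3b1 was below 0 in all 13 settings that tested it, the main one included (-1.51 to -0.43). It was undetected on both MN arrays, so its size and direction are still not settled. Other signs turned. With 1 array left out, Cyp11b1 ran from -1.07 to 0.32 (positive without MN replicate 2), Cyp17a1 from -0.70 (without control replicate 1) to 0.79, with -0.63 without MN replicate 2, Star from -0.29 (without control replicate 1) to 0.60, with -0.09 without MN replicate 2, and Nr5a1 from -0.47 to 0.024 (positive without MN replicate 1). Star was at -0.031 with normexp. These signs turn because an array was removed or, for Star, for a cause that was not tested. Over all genes 5 were called. The count was 15 with normexp, 20 with quantile normalization, 11 when arrays were scaled to their detected probes' median, 16 with a trended robust variance and 22 at a threshold of 0.1. It was 0 without a filter, 0 with detection required on all 4 arrays and 0 with the replicate block (slide; smallest adjusted p = 0.0579). Leaving out any 1 array gave 0 to 0 calls, with the lone array of a group assumed to vary like the others. Same-numbered arrays deviated together (r = 0.63 over genes), but the labels do not say that the numbers pair samples. Signal near background limits Hsd3b1, Cyp11a1, Cyp11b2 and Mc2r.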
